A study of Mus musculus with 8 samples.

Results

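The genes described here are 10 genes of the NRF2 antioxidant response, the transcriptional programme that cells switch on against electrophiles and oxidants. They are the transcription factor gene Nfe2l2, its sensor gene Keap1, and the target genes Nqo1, Gclc, Gclm, Gpx2, Hmox1, Txnrd1, Srxn1 and Slc7a11. They were chosen by name and found through the accession of each probe. The array named 26698 genes in all, all 10 members were among them, and each was read by 1 probe. For 9 of the 10 the probe stood well above background on all 8 arrays, and these 9 were tested. Slc7a11 stood above background on 1 array only and has no measured difference.

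Liver RNA of male mice was hybridised to 1-colour Agilent arrays, 4 from each of 2 congenic genotypes, and the genotypes were compared gene by gene. The labels name them Ltg/NZO.5.3N/N (called NN here; arrays 1, 4, 6 and 7) and Ltg/NZO.5.3N/B (called NB; arrays 2, 3, 5 and 8), with NZO/HiBomDifexC57BL/6J before it in the strain field. Both carry the background of NZO, an inbred strain that becomes obese and diabetic, both were fed a 45% fat diet up to week 5, and they differ in 5.3 Mbp of chromosome 18. None of the 10 genes lies on that chromosome. The labels do not say that each array is a separate mouse, so each p-value reflects only how far these samples spread, which may be technical. In whole liver fewer cells of a type and less RNA per cell cannot be told apart.

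NRF2, the protein of Nfe2l2, is a basic leucine zipper factor. In unstressed cells KEAP1, an adaptor of the CUL3 ubiquitin ligase, holds it in the cytoplasm and marks it for degradation; oxidants and electrophiles modify cysteines of KEAP1, and NRF2 then builds up, pairs with small MAF proteins in the nucleus and binds the antioxidant response element in its target genes. In liver the targets make and recycle glutathione, reduce quinones and thioredoxin, break down heme, and prepare drugs and toxins for export. Because NRF2 is controlled mainly through the stability of its protein, the mRNA of its targets is the usual readout of its activity.

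The letters of that element are shown here for the members whose upstream sequence holds them, although the members were chosen by name and not by these letters. The RefSeq table of the GRCm38.p6 assembly lists 250 bases before the start site of 8 of the members, Gclc and Hmox1 having no entry, with 3 start sites for Txnrd1. The core TGACNNNGC, read on both strands (GCNNNGTCA on the other), occurs in 3 of these 8 genes, Gclm, Nfe2l2 and Txnrd1, and in 10.2% of 32851 promoters of this length. In the windows printed below, 5′ to 3′ on the strand of the gene, capitals mark the match. They lie at chr3:122245393-122245461 (plus strand), chr2:75704865-75704913 (minus strand) and chr10:82859084-82859152 (plus strand), and the match begins 134, 240 and 92 bases upstream of the start site.
Gclm: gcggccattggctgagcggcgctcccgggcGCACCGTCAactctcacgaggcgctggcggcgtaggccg
Nfe2l2: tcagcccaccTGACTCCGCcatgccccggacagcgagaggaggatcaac
Txnrd1: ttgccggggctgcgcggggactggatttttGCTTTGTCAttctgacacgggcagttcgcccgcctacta

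Srxn1 lacks that core in its 250 bases but holds the looser TGANNNNGC 3 times, a pattern found in 35.2% of promoters on either strand. By gene, 7 of the 8 members and 38.7% of all genes hold the looser pattern. The match nearest the start site, 45 bases upstream at chr2:152105449-152105517 (plus strand), overlaps TGANTCA, the site of AP-1 factors, which 6.75% of promoters hold. It is shown because both patterns share the same bases.
Srxn1: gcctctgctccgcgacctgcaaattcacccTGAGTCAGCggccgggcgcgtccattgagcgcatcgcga
A match is a description of letters only, and no match in this window says nothing about sequence farther away.

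The livers were checked against markers of their cells. The hepatocyte genes Alb (albumin) and Hnf4a (a hepatocyte transcription factor) were well above background on all 8 arrays, and the summed level of 7 hepatocyte markers, each relative to the 75th percentile of its array, ran from 700.8 to 763 in NN and from 694.7 to 766.6 in NB. The summed level of 7 Kupffer cell markers ran from 33.5 to 43.7 in NN and from 35.4 to 48.9 in NB, with Clec4f above background on every array. Such sums add linear signals, so the brightest probes weigh most in each. Of the 61473 spots per array none was saturated, and the 75th percentile of the signal lay between 445 and 584.4 intensity units.

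The comparison between the genotypes asks whether the chromosome 18 segment goes with a different state of the antioxidant programme in liver. No member passed the test. Of the 9 tested genes, 0 were called with limma at an adjusted p under 0.05, a threshold that 0.00698% of 42982 features passed, and 0 had an unadjusted p under 0.05, where 1.69% of all features did, 0.733% higher and 0.956% lower in NB. The genotypes overlapped for all 9, against 1.16% of features where they did not. The log2 fold change (NB minus NN) was positive for 6 and negative for 3, and 45.8% of all features were positive; the median over the 9 genes was 0.015, beside −0.0098 over all features. The adjusted p of each of the 9 was 1.00.

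**Figure D1:**
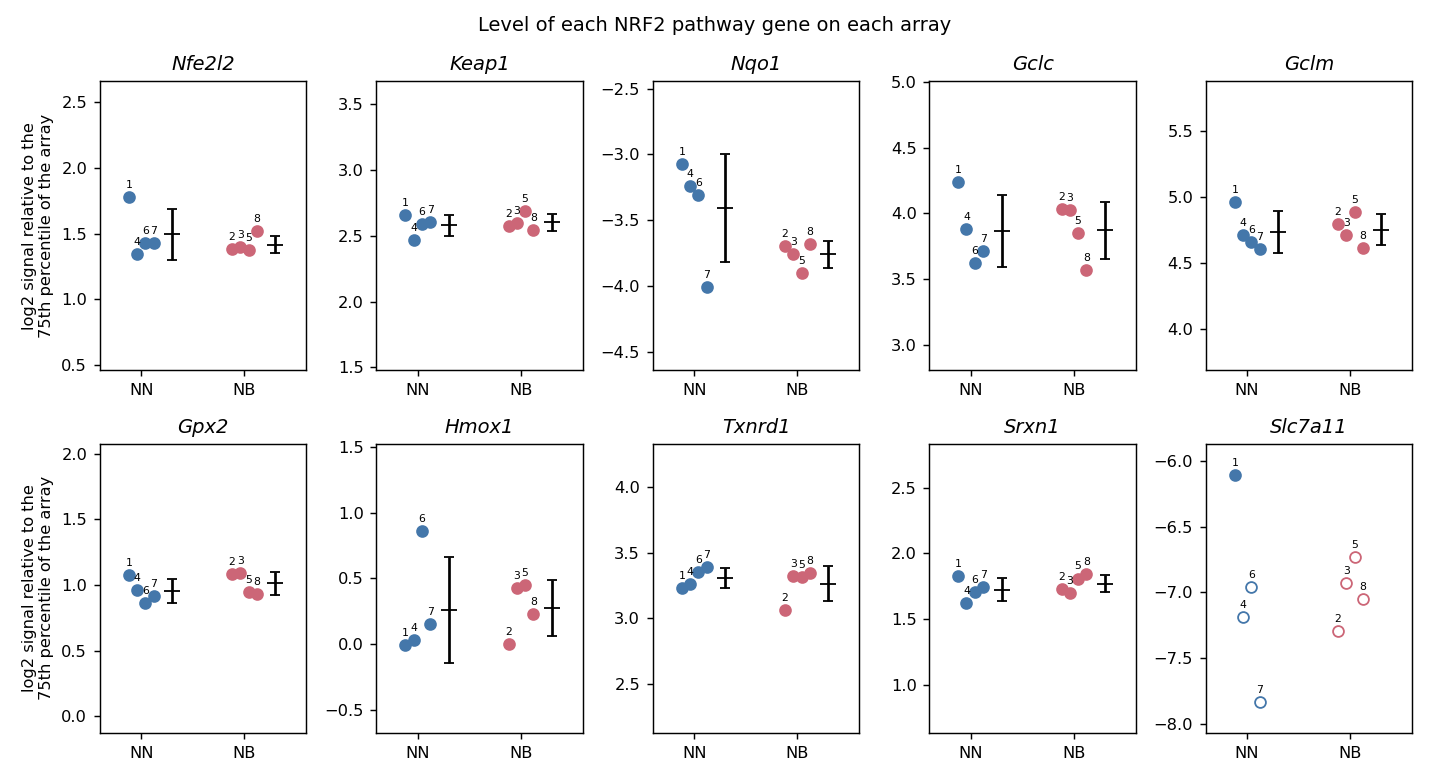
Level of the 10 genes on each array, as log2 signal relative to the 75th percentile of that array (vertical axes of equal span). Points are arrays, with their number, in NN (blue) and NB (red); black bars give mean and SD of 4 arrays, and open points of Slc7a11 were not well above background. The genotypes overlap in every panel, and NN 1 is the highest array for Nfe2l2, Nqo1, Gclc and Gclm.

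For the factor and its sensor no difference between the genotypes was detected. All levels below are log2 signals relative to the 75th percentile of the array, which compare arrays for 1 gene and not genes with each other. The NN arrays 1, 4, 6 and 7 gave Nfe2l2 levels of 1.78, 1.34, 1.43 and 1.43, and the NB arrays 2, 3, 5 and 8 gave 1.38, 1.40, 1.38 and 1.52. Array NN 1 stood above the other 7, which lay within a narrow band, and the genotypes overlapped. The mean was 1.495 ± 0.195 in NN and 1.418 ± 0.068 in NB (SD, n = 4 each), a log2 fold change of −0.078 (SE 0.105, limma adjusted p = 1.00). The 95% interval reached from 1.25-fold lower to 1.12-fold higher in NB.

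Keap1 varied little between arrays. Its levels were 2.66, 2.47, 2.59 and 2.60 on NN 1, 4, 6 and 7, and 2.58, 2.60, 2.69 and 2.55 on NB 2, 3, 5 and 8. The highest array and the lowest differed by 0.22, and only 4.83% of features had as small an SD over the 8 arrays. The log2 fold change was 0.023 (SE 0.0749, limma adjusted p = 1.00), with an interval from 1.11-fold lower to 1.14-fold higher in NB.

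Nqo1 had the widest gap between genotype means of the 9. It encodes a cytosolic quinone reductase and is widely used as a marker of NRF2 activity. Its probe was dim, at 30.5 to 63.9 intensity units, although well above background on all 8 arrays. The NN arrays 1, 4, 6 and 7 gave −3.07, −3.24, −3.31 and −4.01, while NB 2, 3, 5 and 8 gave −3.70, −3.76, −3.91 and −3.68. The genotypes overlapped through a single array: NN 1, NN 4 and NN 6 lay above all 4 NB arrays, and NN 7 lay below all of them. The mean was −3.41 ± 0.413 in NN and −3.76 ± 0.101 in NB (SD, n = 4 each).

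The log2 fold change of Nqo1 was −0.35 (SE 0.187, unadjusted p = 0.0922, limma adjusted p = 1.00), with an interval from 1.71-fold lower to 1.05-fold higher in NB. Its unadjusted p ranked 1579 of 42982. Without NN 7 the log2 fold change was −0.55 (SE 0.0994), with an unadjusted p under 0.05 but still an adjusted p of 1.00. Without NN 1 it was −0.24. After normexp correction with an offset of 50 intensity units, comparable in size to the signal of this probe, it was −0.15. The slide paired 1 NN array with 1 NB array in each of its 4 columns, and inside these columns NB minus NN was −0.63, −0.52, −0.59 and 0.33; within the 2 rows it was −0.42 and −0.29.

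**Figure D2:**
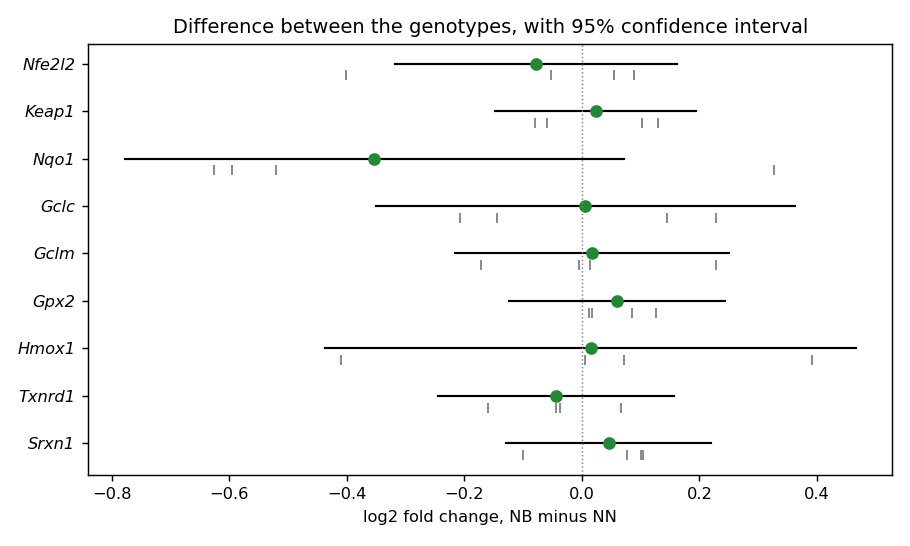
Log2 fold change, NB minus NN, of the 9 tested genes (green points) with the 95% confidence interval from limma (lines), and the 4 differences within slide columns (grey ticks). Every interval includes 0, and the largest difference is that of Nqo1, at −0.35, with 3 of its 4 column differences below −0.5.

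The genes of glutathione synthesis had nearly equal means in the 2 genotypes. Gclc and Gclm encode the catalytic and the modifier subunit of glutamate-cysteine ligase, the rate-limiting enzyme of glutathione synthesis. Gclc was at 4.24, 3.88, 3.62 and 3.72 on NN 1, 4, 6 and 7, and at 4.04, 4.03, 3.85 and 3.57 on NB 2, 3, 5 and 8. Gclm was at 4.96, 4.71, 4.66 and 4.60 on the NN arrays in the same order, and at 4.79, 4.71, 4.89 and 4.62 on the NB arrays. NN 1 was highest for both subunits, and in each genotype the arrays spread by more than the genotype means differed.

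The mean of Gclc was 3.87 ± 0.272 in NN and 3.87 ± 0.216 in NB (SD, n = 4 each), with a log2 fold change of 0.0055 (SE 0.157, limma adjusted p = 1.00). The interval allowed Gclc to be up to 1.28-fold lower or 1.29-fold higher in NB. For Gclm the log2 fold change was 0.017 (SE 0.103, limma adjusted p = 1.00), with an interval from 1.16-fold lower to 1.19-fold higher. The sign of neither value was stable when single arrays were left out.

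Cystine enters the cell for this synthesis through the antiporter xCT, whose light chain Slc7a11 encodes. The Slc7a11 probe gave 7.81 intensity units on NN 1, where it was well above background. On the other 7 arrays it gave 2.15 to 4.64 units and was not well above background, so no fold change is given. Slc3a2, the heavy chain that xCT shares with other transporters, was above background on all 8 arrays, with a log2 fold change of 0.062 (SE 0.0985, limma adjusted p = 1.00).

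Gpx2, a selenium-dependent glutathione peroxidase best known from epithelia of the gut, was measured in every liver. Its levels were 1.07, 0.96, 0.86 and 0.91 on NN 1, 4, 6 and 7 and 1.09, 1.09, 0.95 and 0.93 on NB 2, 3, 5 and 8. NB was higher than NN within each of the 4 slide columns, by 0.012 to 0.13, but the genotypes overlapped over the 8 arrays. The log2 fold change was 0.060 (SE 0.0809, limma adjusted p = 1.00), with an interval from 1.09-fold lower to 1.18-fold higher. Of the gut markers, Fabp2 and Cdx1 were above background on all 8 arrays, Cdx2 also, and Vil1 on 2. The summed level of the 4 ran from 27.7 to 39.6 in NN and from 22.6 to 36.4 in NB. Cdx2, with a log2 level of at most −2.48, adds little to it, and Cdx1, of at most 1.92, adds a minor part. The part of this sum in the Gpx2 level was not tested.

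Hmox1, the inducible heme oxygenase, opens heme to biliverdin, carbon monoxide and iron, and macrophages that clear red cells express it strongly. Among the 9 genes its SD over the 8 arrays came next after that of Nqo1. The NN arrays 1, 4, 6 and 7 gave −0.0081, 0.035, 0.86 and 0.16, and the NB arrays 2, 3, 5 and 8 gave −0.0022, 0.43, 0.45 and 0.23. One NN array, NN 6, was the highest of the 8, and NN 1, NN 4 and NB 2 were the lowest. The mean was 0.26 ± 0.404 in NN and 0.27 ± 0.210 in NB (SD, n = 4 each), a log2 fold change of 0.015 (SE 0.199, limma adjusted p = 1.00), and the interval reached from 1.35-fold lower to 1.38-fold higher.

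The 3 arrays with the lowest Hmox1 were also those with the lowest summed level of the 7 Kupffer cell markers, at 34.0 (NN 1), 35.4 (NB 2) and 33.5 (NN 4), against 42.3 to 48.9 on the other 5. The marker Cd5l, at log2 levels from 3.60 (NN 1) to 4.32 (NB 3), makes up a large part of this sum. Over the 8 arrays the Pearson r of Hmox1 with that sum was 0.61 (two-sided exact permutation p = 0.0999) and Spearman's rho was 0.67 (exact permutation p = 0.0831). Adjusted over 36 relations the p-values were 0.300 and 0.332, and r was 0.38 without NN 1 and NN 4. Of the 7 Kupffer cell markers 6 were higher in NB (median log2 fold change 0.18), none was called, and their part in the Hmox1 level was not tested. With the means of the 4 slide columns removed, which leaves 4 differences, r was 0.47. The same sum had r = −0.69 with Nqo1 (exact permutation p = 0.0610, adjusted p = 0.220; rho = −0.71, exact permutation p = 0.0576, adjusted p = 0.259), −0.24 without NN 1 and NN 4 and −0.63 within columns. With Txnrd1 it had r = 0.68 (exact permutation p = 0.0440, adjusted p = 0.187; rho = 0.48, exact permutation p = 0.243, adjusted p = 0.583), 0.77 without those arrays and 0.19 within columns. No relation of a member with this sum passed after adjustment.

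In the thioredoxin arm of the programme the genotype means lay within 0.05 of each other. Txnrd1 encodes cytosolic thioredoxin reductase, a selenoprotein, and Srxn1 encodes sulfiredoxin, which repairs overoxidised peroxiredoxins. Txnrd1 was at 3.23, 3.26, 3.35 and 3.39 on NN 1, 4, 6 and 7 and at 3.07, 3.32, 3.32 and 3.35 on NB 2, 3, 5 and 8, so that NB 2 was the lowest of the 8 and the rest lay close together. Srxn1 was at 1.83, 1.62, 1.70 and 1.74 on the NN arrays and at 1.73, 1.70, 1.81 and 1.85 on the NB arrays. The log2 fold change was −0.044 for Txnrd1 (SE 0.0884) and 0.045 for Srxn1 (SE 0.0765), each with a limma adjusted p of 1.00. Intervals reached from 1.19-fold lower to 1.11-fold higher for Txnrd1 and from 1.09-fold lower to 1.16-fold higher for Srxn1.

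The members were then compared with each other across the 8 arrays. Of the 36 pairs of the 9 tested genes, 22 had a positive Pearson r and the median r was 0.13. No pair passed after Benjamini-Hochberg adjustment of exact permutation p-values by Pearson or by Spearman correlation, while 3 pairs by Pearson and 5 by Spearman had an unadjusted p under 0.05. The closest pair was Gclc and Gpx2 (r = 0.88, exact permutation p = 0.00588, adjusted p = 0.212; rho = 0.83, exact permutation p = 0.0154, adjusted p = 0.261), and r was 0.97 without NN 1 and NB 8. With the genotype means removed it was 0.94, and with the slide column means removed 0.58.

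The subunits Gclc and Gclm came next, with r = 0.78 (exact permutation p = 0.0229, adjusted p = 0.413) and rho = 0.76 (exact permutation p = 0.0368, adjusted p = 0.330). Here r was 0.49 without both NN 1 and NB 8, 0.60 without NN 1 alone and 0.74 without NB 8 alone. NN 1 and NB 8 lay farthest from the Gclc median, so leaving them out also narrows its range. Within slide columns r was 0.80. Txnrd1 ran against Gpx2 (r = −0.68, exact permutation p = 0.0440, adjusted p = 0.526; rho = −0.74, exact permutation p = 0.0458, adjusted p = 0.330), with r = −0.37 without NN 1 and NB 2 and 0.087 within slide columns. After quantile normalization this last pair passed (r = −0.90, exact permutation p = 0.000794, adjusted p = 0.0286). The factor Nfe2l2 and its target Srxn1 had r = 0.63 (exact permutation p = 0.0850, adjusted p = 0.526) and rho = 0.67 (exact permutation p = 0.0831, adjusted p = 0.427), and r was 0.34 without NN 1 and NB 8 and 0.60 within slide columns.

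The levels of 3 members were ordered much as the brightness of the arrays, although no relation passed after adjustment. Gclc and Gpx2 were highest on the brightest arrays and lowest on the dimmest, and Txnrd1 ran the other way. Gclc had r = 0.81 with the log2 of the 75th percentile (exact permutation p = 0.0147, adjusted p = 0.132; rho = 0.93, exact permutation p = 0.00223, adjusted p = 0.0548), and r was 0.95 without NB 2 and NN 6. Gpx2 had r = 0.86 (exact permutation p = 0.00419, adjusted p = 0.0755; rho = 0.83, exact permutation p = 0.0154, adjusted p = 0.138), and 0.77 without those arrays. Txnrd1 had r = −0.87 (exact permutation p = 0.00362, adjusted p = 0.0755; rho = −0.90, exact permutation p = 0.00456, adjusted p = 0.0548), and −0.79 without them.

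Hmox1 had r = −0.75 with brightness (exact permutation p = 0.0308, adjusted p = 0.158; rho = −0.79, exact permutation p = 0.0279, adjusted p = 0.201), and −0.41 without the same arrays. With the slide column means removed, r with brightness was 0.24 for Gclc, 0.40 for Gpx2, −0.61 for Txnrd1 and −0.58 for Hmox1, each over 4 differences. Gclc also had r = 0.86 with the summed recruited macrophage markers (exact permutation p = 0.0064, adjusted p = 0.0768), 0.69 without NN 6 and NB 8 and 0.77 within slide columns. Spearman's rho was 0.90 (exact permutation p = 0.00456, adjusted p = 0.0548). The sum ran from 55.9 to 101.1, while Cd68 had a log2 level of at most 1.24 and Ccr2 of at most −1.87. Both thus add little to it, and the sum did not follow Cd68. That marker was at 0.64 on NN 1, where the sum was 101.1, and at 1.24 on NB 5, where the sum was 72.1. Of the 6 tested markers 5 were higher and 1 was lower in NB, and none was called. The sum therefore stands for its brightest probes more than for the cell type, and the part of recruited macrophages in the Gclc level was not tested.

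These relations were among 36 chosen after the data were seen, 9 genes against brightness and the summed hepatocyte, Kupffer cell and recruited macrophage markers. Of these, 0 passed after adjustment and 9 had an unadjusted p under 0.05. With the hepatocyte sum, Txnrd1 had r = 0.80 (exact permutation p = 0.0198, adjusted p = 0.143), but −0.175 without NN 1 and NB 2. Gclm had r = −0.72 with it (exact permutation p = 0.0468, adjusted p = 0.187), and −0.62 without those arrays. Gpx2 had r = 0.77 with the recruited macrophage sum (exact permutation p = 0.0308, adjusted p = 0.158), and 0.72 without NN 6 and NB 8. With brightness, an r at least as high as that of Gclc (0.81) was found in 3.55% of 42512 features. One as high as that of Gpx2 with brightness (0.86) was found in 1.71%. For Txnrd1 (r = −0.87 with brightness), 96.5% of features had an r at least as high. Such shares were not computed for the marker sums. The percentile is also the value subtracted from every level, so a probe of constant raw signal runs against it by construction. The raw Txnrd1 signal lay between 4547 and 5144 units on all 8 arrays, while that of Gclc ran from 5487 to 10182. The part of the subtraction in these relations was not tested.

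**Figure D3:**
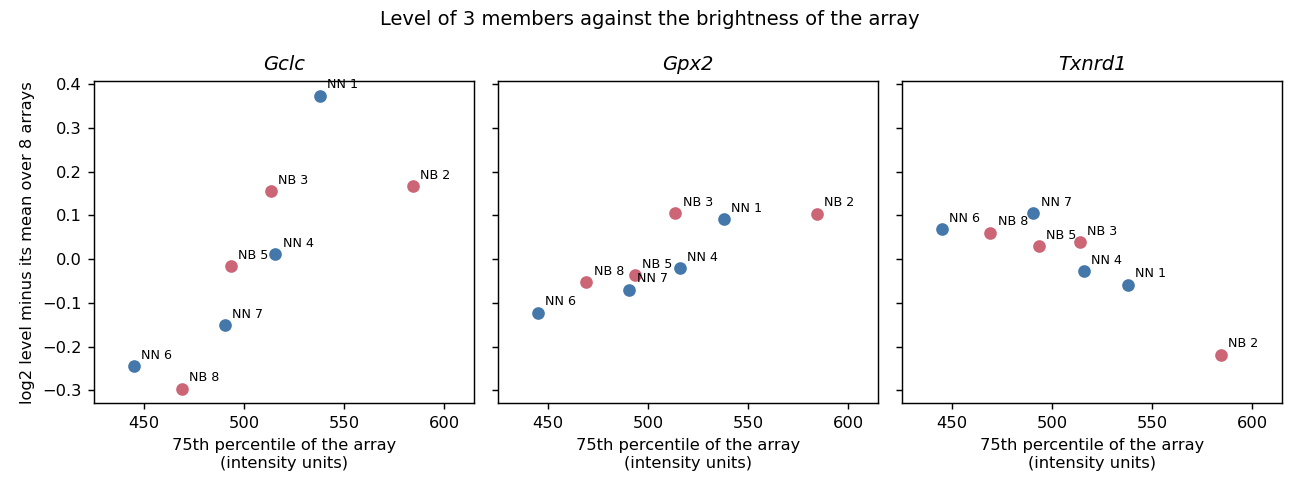
Log2 level of Gclc, Gpx2 and Txnrd1 minus its own mean over the 8 arrays, against the 75th percentile of the array in intensity units; points are arrays of NN (blue) and NB (red). Gclc and Gpx2 are higher on brighter arrays (r = 0.81 and 0.86 with the log2 percentile) and Txnrd1 is lower (r = −0.87), in both genotypes.

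All arrays of slide columns 1 and 2 were brighter than those of columns 3 and 4, so brightness went with position. The mean Gclc level was 4.14, 3.95, 3.74 and 3.65 in slide columns 1 to 4. For Gpx2 it was 1.08, 1.03, 0.90 and 0.92. With the slide column as a block the SE of the Gclc log2 fold change narrowed from 0.157 to 0.103 around the same value of 0.0055, and that of Gpx2 from 0.0809 to 0.0700, and neither was called.

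Array NN 1 was the highest of the 8 for 4 of the 9 members, Nfe2l2, Nqo1, Gclc and Gclm, and lay above the median for 7. It was the highest for 17.1% of 42512 features overall. On the same array Hmox1 was at its lowest, so the members did not move as a block there. Its Slc7a11 signal was the 1 reading of that gene above background.

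By likeness to Nqo1 over the 8 arrays, the nearest of 23623 named genes were H2bc4 (Pearson r = 0.960), Tesmin (0.947), H2bc11 (0.937), Ces1h (0.934) and Gm34145 (0.933). H2bc4 and H2bc11 are near-identical histone genes whose probes may share signal. The values are given as a description of 8 arrays, picked as the highest of all genes, with no test. None of the other members was among the 5.

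Around the members, 7 further lists of the pathway were read in the same way, and no gene of any of them was called with limma over all features. The regulators and partners of NRF2, such as the ligase scaffold Cul3, the small MAF factors and the repressor Bach1, had 15 of 16 genes measured, 8 higher and 7 lower in NB, with a median log2 fold change of 0.00023. Bach1, which competes with NRF2 at the response element, was at 0.14 (SE 0.149) and Nfe2l3, a related factor, at −0.17 (SE 0.158). The spots of Btrc were marked as outliers on most arrays and gave no test. Sqstm1, whose protein p62 binds KEAP1, was at 0.054 (SE 0.0721), and Cul3 at −0.017 (SE 0.0735).

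Glutathione and thioredoxin genes outside the 10 lay slightly lower in NB for the most part. Of the 16 genes of glutathione synthesis, recycling and use, 5 were higher and 11 lower, with a median of −0.078. Of the 15 thioredoxins, peroxiredoxins, superoxide dismutases and catalase, 2 were higher and 13 lower, with a median of −0.057, beside the −0.0098 of all features. The genotypes did not overlap for 3 genes of these lists, Glrx5, Gpx1 and Sod2, which are named after their values were seen, and 0.731% of all features lay lower in NB without overlap.

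Glrx5, a mitochondrial glutaredoxin that serves iron-sulfur cluster assembly, gave 4.81, 4.74, 4.76 and 4.77 on NN 1, 4, 6 and 7 and 4.54, 4.50, 4.60 and 4.73 on NB 2, 3, 5 and 8. All 4 NN arrays lay above the NB arrays, by a small margin on NB 8. Its log2 fold change was −0.18 (SE 0.0749, unadjusted p = 0.0434, limma adjusted p = 1.00). Sod2, the mitochondrial superoxide dismutase, was at −0.14 (SE 0.0736) and Gpx1, the main cytosolic glutathione peroxidase, at −0.097 (SE 0.0660), both with an adjusted p of 1.00. Prdx6, a peroxiredoxin with phospholipase activity, was at −0.20 (SE 0.0988), while Gpx8 was at 0.13 (SE 0.101) and Txnrd3 at 0.010 (SE 0.0873).

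**Figure D4:**
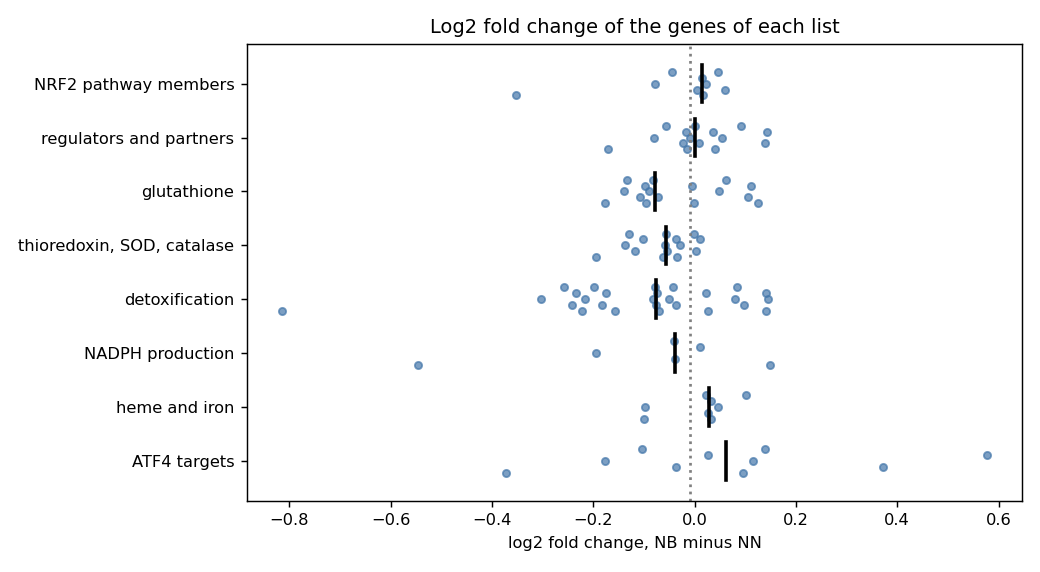
Log2 fold change, NB minus NN, of each measured gene (points) in the 10 members and in 7 lists around them, with the median of each list (black bars) and of all features (dotted line, −0.0098). The medians lie between −0.078 and 0.061, and no point passed the test over all features.

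Of 30 detoxification enzymes and efflux transporters known to respond to NRF2, 27 were on the array by name and tested, 8 higher and 19 lower in NB, with a median of −0.076. Gstm2, a glutathione transferase, was at −0.30 (SE 0.129, unadjusted p = 0.0439, limma adjusted p = 1.00), and its NN arrays 1, 4, 6 and 7 gave −1.41, −1.27, −1.09 and −1.73 against −1.73, −1.63, −1.67 and −1.69 on the NB arrays. NN 1, NN 4 and NN 6 lay above all 4 NB arrays, and NN 7 lay level with the lowest of them, NB 2. Ugt2b35, a glucuronosyltransferase, was at 0.15 (SE 0.0948). The widest value of the list, −0.81 for Gsta2, had an SE of 0.709 and came from a probe above background on 5 arrays. Probes of the glutathione transferases can share signal between near-identical paralogs, and the split between them is uncertain.

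Among 6 enzymes that supply NADPH, 2 were higher and 4 lower (median −0.039). Me1, the cytosolic malic enzyme, which lipogenic signals also drive in liver, was at −0.55 (SE 0.199, unadjusted p = 0.0235, limma adjusted p = 1.00). Its NN arrays 1, 4, 6 and 7 gave 2.71, 2.52, 2.98 and 2.68 and its NB arrays 2, 3, 5 and 8 gave 2.26, 1.598, 2.25 and 2.59, so NB 8 alone reached into the NN range. In these 7 lists, a limma unadjusted p under 0.05 was found for 1 of 16 glutathione genes (Glrx5), 1 of 27 detoxification genes (Gstm2) and 1 of 6 NADPH enzymes (Me1). The other lists held none. Each of these genes was lower in NB, where 0.956% of all features passed that threshold. None of the 7 lists had a gene passing it higher in NB, where 0.733% of all features did. G6pdx, the first enzyme of the pentose phosphate pathway, was at 0.15 (SE 0.126). The 8 genes of heme and iron handling had 6 higher and 2 lower, with a median of 0.029; the ferritin heavy chain gene Fth1 was at −0.10 (SE 0.0734) and the iron exporter gene Slc40a1 at 0.10 (SE 0.111). ATF4, a factor of amino acid stress, also drives Slc7a11. Of 10 genes of its response 6 were higher and 4 lower (median 0.061), with the serine synthesis gene Phgdh at 0.58 (SE 0.335) and Sesn2, measured on 7 arrays after an outlier spot was left out, at −0.37 (SE 0.222), all with an adjusted p of 1.00.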

How the data were processed

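Liver RNA was read on 8 one-colour arrays, all on 1 slide. Per the file headers, the scans were read by Agilent Feature Extraction 11.5.1.1 (per the submitters' processing notes, 9.1). Its deposited signal is a linear intensity, background-subtracted and detrended within each array but not normalized across arrays. The deposited value table holds linear intensities whose 8 columns are the same when sorted. Outlier spots were treated as missing and spots of 1 probe averaged. From each log2 signal the log2 of that array's 75th percentile was subtracted. Accessions without version were matched to the RefSeq table of GRCm38.p6, which named 31064 of 60273 probes. File headers name mm9, and the only coordinates given are those of the upstream windows, on GRCm38.p6. Probes well above background on at least 4 arrays (46848) were kept, each gene by its brightest probe, which left 42982 features. NB was compared with NN by limma 3.58.1 in R 4.3.3, two-sided, with Benjamini-Hochberg adjustment over all features. Correlations used exact permutation of the 8 arrays; those with slide column means removed were added after the data were seen. The steps were tested on simulated data. The number of arrays limits the precision.

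The members and lists were chosen with earlier results of these data known. Named genes are the 10 members, the gene of smallest p in each direction of 7 pathway lists and the 5 genes most like Nqo1; the other genes named were singled out after their values were seen. Alternatives covered background correction, scaling, the value table, filters, the summary of probes, the variance model, slide position and each array left out.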

Additional observations from a re-analysis of the deposited data

Results flagged for a closer look

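Single arrays stood far from the other 3 of their genotype in 5 of 81 sets of 4 arrays examined (members, named genes and summed levels of lists). By chance alone about 5% of such sets would be picked out. Nfe2l2 was high on NB 8, at 1.52 against 1.38 to 1.40 on the other NB arrays, although below NN 1. Txnrd1 was low on NB 2, at 3.07 against 3.32 to 3.35. The summed level of the 10 members, each signal divided by the 75th percentile of its array, was 76.1 on NN 1 against 63.1 to 64.7 on the other NN arrays. Gclm and Gclc, the brightest members (log2 levels of 4.96 and 4.24 on NN 1), weigh most in this sum, and Hmox1 was lowest on that array. The summed level of the heme and iron genes was 256.4 on NB 3 against 268.2 to 269 on the other NB arrays, and that of the cholangiocyte markers was 24.2 on NN 4 against 26.1 to 26.4 on the other NN arrays.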

How the results depend on the processing

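No member was called under any of the 18 alternative fits or at an adjusted p under 0.1, and over these fits the adjusted p of the 23 named genes lay between 0.9999 and 1.00. The signs of Nqo1, Srxn1 and Gpx2 were the same in all 18, while the small differences of the other 6 members changed sign in 1 to 6 of them. With 1 array left out, the log2 fold change ran from −0.13 to 0.018 for Nfe2l2, −0.015 to 0.050 for Keap1, −0.075 to 0.13 for Gclc, −0.029 to 0.093 for Gclm, −0.075 to 0.21 for Hmox1, −0.072 to 0.022 for Txnrd1 and −0.033 to 0.064 for Txnrd3, and the number of members higher in NB ran from 3 to 6 (3 without NB 5 or NN 7). With normexp Gclc was at −0.0095, Hmox1 at −0.0016 and Txnrd3 at −0.0055. With the mean of the probes of a gene, 5 features were called in place of 3, none of them a member. With quantile normalization 1 pair of members was correlated in place of 0. The cause of these changes was not tested. No paired analysis by array number was possible because the numbers run through both genotypes and share none; with the slide column as a block, a pairing by position, no member was called. Slc7a11, and Nqo1 with its dim probe, are limited by signal over background.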
